A study of Mus musculus with 3 samples.

Results

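The Toll-like receptors of B cells were followed here as 10 genes, which were the 7 receptor genes Tlr1, Tlr2, Tlr3, Tlr4, Tlr6, Tlr7 and Tlr9, the receptor homologue Cd180 with its partner Ly86, and the adaptor Myd88. They were chosen by gene name out of 27088 genes in the table, and each name was found once. The RNA came from B cells sorted from the spleens of female BALB/c mice, and material of 3 mice was pooled before sequencing, so each group has 1 library. Both groups analysed were a model of allergic rhinitis that began at 6 weeks of age. The mice received 10 μg ovalbumin (OVA) with 2 mg aluminum hydroxide into the peritoneum at days 0, 7 and 14, and then 100 μg OVA into the nose daily, from day 21 to day 27 and again from day 29 to day 35. The PBS group was given 50 μl phosphate-buffered saline under the skin on days 0, 14 and 28. The SJMHE1 group was given 10 μg of SJMHE1, a peptide of the worm Schistosoma japonicum, emulsified in incomplete Freund's adjuvant, on the same days. No adjuvant is named for the PBS injections, so the peptide and the adjuvant cannot be told apart. Spleens were taken on day 36. The labels give an age of 13 weeks, which is older than a start at 6 weeks and an end on day 36 would give, and the difference is not explained. The Control group of healthy mice was not analysed here, because the names of 2 columns of values match no sample.

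Toll-like receptors recognise molecules that microbes share and signal through an intracellular domain that recruits adaptors, above all Myd88, towards NF-kB and interferon regulatory factors. Some sit at the cell surface and bind lipids of bacterial walls, whereas others sit in endosomes and bind nucleic acids. B cells respond to their ligands by division, cytokine release and antibody production, also without T cells, and they carry Cd180, a receptor homologue that lacks the signalling domain.

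The sorted cells had the RNA profile of B cells. All 9 B cell markers were present, from an FPKM (fragments scaled by gene length and library size) of 22.6 for Ebf1 to 835 for Cd79a in the PBS library, and their log2 ratios, SJMHE1 to PBS, lay between -0.14 and 0.20. The libraries held 48267168 counts for PBS and 51280237 for SJMHE1. RNA of other cells was present in both libraries, with no marker of those lists at 0. The summed FPKM of 15 macrophage and monocyte markers was 132 in PBS and 74.3 in SJMHE1, of which Lyz2 alone made up 88.8 and 37.4. Of the 12 that passed the filter described below, 5 were higher and 7 lower in SJMHE1, with C1qc highest at a log2 ratio of 1.20. For 8 neutrophil markers the sum was 423 and 499.8, but 6 of the 8 were lower in SJMHE1, and S100a8 and S100a9 were the higher ones. For 8 T cell markers it was 52.5 and 31.3, of which Lck, a kinase gene, made up 27.9 and 25.2, and the other 7 were past 2-fold lower, so the median log2 ratio of the list was -1.96. The sum of 8 dendritic cell markers was 9.30 and 4.51, and that of 6 NK cell markers 13.9 and 6.33. Fewer cells of a type and less RNA per cell cannot be told apart in such pooled samples. Macrophages, dendritic cells and neutrophils also express Toll-like receptors, and their part in the values below was not tested.

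Tlr1 and Tlr6 are neighbours on the minus strand of chromosome 5 and share near-identical stretches, so their sequence is shown first. Tlr1 (ENSMUSG00000044827) lies from 64924679 to 64933561 and Tlr6 (ENSMUSG00000051498) from 64952031 to 64960048 in the deposited table, with 18469 bases between them. In GENCODE M21 on GRCm38, each has its whole coding sequence in 1 exon. The coding sequences share an unbroken run of 229 bases, and of all windows of 50 bases in their transcripts, 13.6% of Tlr1 and 12.3% of Tlr6 also occur in the other gene. Laid side by side without gaps in the register of that run, 64.6% of 2379 coding bases were the same, a value that any insertion or deletion lowers. The lines below give 120 coding bases of each gene, the last 60 of which open that run. The capitals mark the only base that differs.
Tlr1, chr5:64925706-64925825, minus strand, GRCm38: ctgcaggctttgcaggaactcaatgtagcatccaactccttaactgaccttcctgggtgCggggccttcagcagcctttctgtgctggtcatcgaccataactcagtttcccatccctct
Tlr6, chr5:64953997-64954116, minus strand, GRCm38: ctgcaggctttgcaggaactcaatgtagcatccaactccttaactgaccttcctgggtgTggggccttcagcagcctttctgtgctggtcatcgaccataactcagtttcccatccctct
Reads from such stretches could have been given to either gene in the authors' counting, so the separate levels of Tlr1 and Tlr6 are uncertain to that extent. No window of 50 bases in the transcripts of Tlr2, Tlr7, Tlr9 or Ly86 occurred in another gene.

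The receptor genes spanned a wide range of levels, and their order was nearly the same in both libraries. FPKM values are scaled by gene length, so comparisons between genes depend on the lengths that the authors used. By counts and FPKM, the length used for Ly86 was above that for Tlr1. In GENCODE M21, their transcripts with the longest coding sequence have 1134 and 3025 bases. With other lengths, the order of the genes could differ. Tlr1 was the highest, at an FPKM of 50.6 in PBS and 55.2 in SJMHE1, and Tlr3 was the lowest, at 1.36 and 1.20, which is a 37.2-fold span in the PBS library and a 46.0-fold span in the SJMHE1 library. Cd180, Ly86, Myd88, Tlr9, Tlr7, Tlr6, Tlr2 and Tlr4 lay between them in the PBS library, in this order. The counting intervals of neighbours in the order did not overlap, except for Tlr7 and Tlr6 in the PBS library, at 7.32 and 6.91. The order differed between the libraries in 1 place. Myd88 was above Tlr9 in PBS, at 15.2 against 13.9, and Tlr9 was above Myd88 in SJMHE1, at 15.5 against 12.4. Whether these genes cross depends on the lengths used, because another length moves a gene by the same factor in both libraries. With no replicate in either group, the spread between mice is unknown for each of these levels, and intervals cover counting error only.

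**Figure D1:**
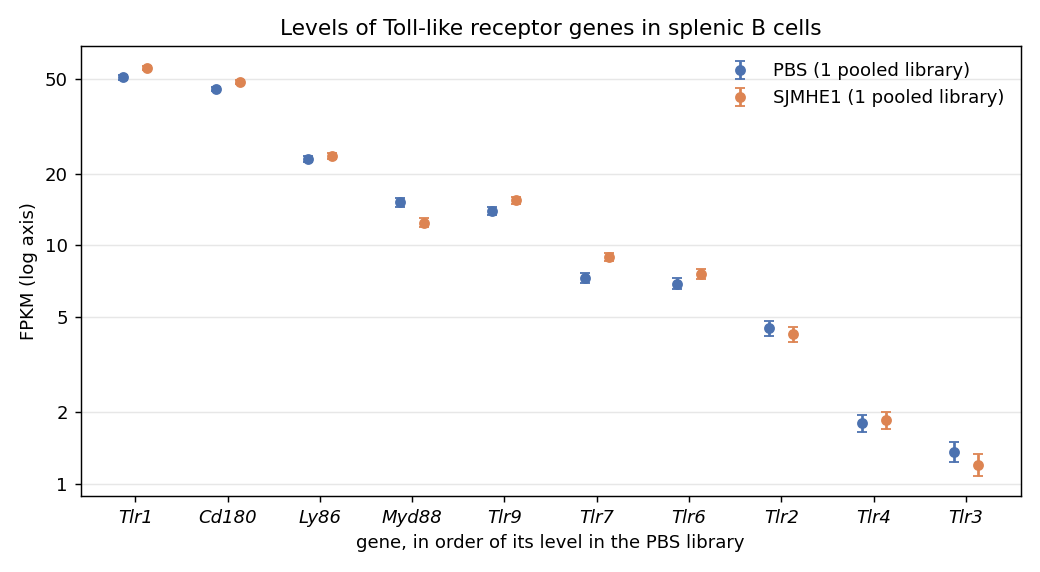
FPKM (log axis) of the 10 genes in the PBS library (blue) and the SJMHE1 library (orange), with exact Poisson intervals of the counts at the 95% level as bars. The points of the 2 libraries lie close together for each gene, from Tlr1 at 50.6 and 55.2 to Tlr3 at 1.36 and 1.20, and Myd88 and Tlr9 change places.

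Compared with the PBS group, none of the 10 genes differed by more than 2-fold in the SJMHE1 group. All 10 passed the filter on low values, which asked for an FPKM of 1 or more in either library and no FPKM of 0, as did 12433 genes in all. Among these, 2.43% were past 2-fold higher and 3.57% past 2-fold lower in SJMHE1, so a count of 0 in 10 genes is near this background. The interval of the ratio lay inside 2-fold for 10 of 10 genes, so a change of that size would have been visible at this depth as far as counting error goes. The median log2 ratio of the 10 genes was 0.07, and that of all genes compared was -0.01. Of the 10 genes, 7 were higher in SJMHE1 and 3 lower, and among all genes compared 47.7% were higher. The counting interval left out 0 for 6 of the 10 genes, 5 of them higher and 1 lower in SJMHE1, against 65.6% of all genes compared, 31.0% higher and 34.5% lower. No test across replicates was possible with 1 library per group.

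**Figure D2:**
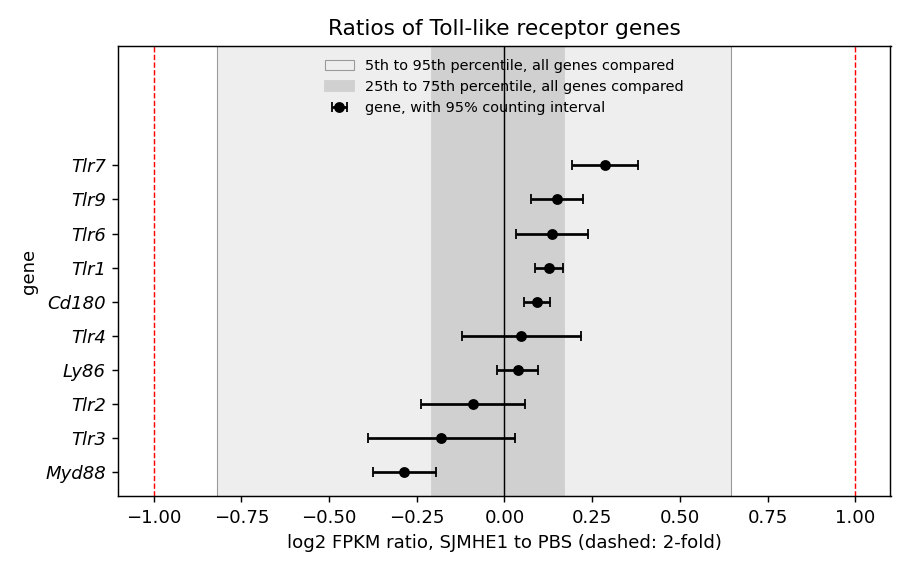
Log2 FPKM ratio, SJMHE1 to PBS, of each gene, with 95% bars for counting error (exact Clopper-Pearson). The shaded bands give the middle range of all 12433 genes compared, from -0.82 to 0.64 (pale) and from -0.21 to 0.17 (dark). All 10 genes lie inside the pale band, and Tlr7 and Myd88 lie outside the dark one.

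At the cell surface, Tlr2 is the shared chain that pairs with Tlr1 or with Tlr6 to bind bacterial lipopeptides. Tlr1 had an FPKM of 50.6 with 9297 counts in PBS and 55.2 with 10739 counts in SJMHE1. It was 9.13% higher in SJMHE1, a log2 ratio of 0.13 (interval 0.09 to 0.17). Its level was above that of 93.9% of the genes compared in the PBS library. Tlr6 had 6.91 with 1415 counts in PBS and 7.59 with 1645 counts in SJMHE1, a log2 ratio of 0.14 (interval 0.03 to 0.24). Tlr2 had 4.50 with 745 counts in PBS and 4.23 with 742 counts in SJMHE1. Its log2 ratio of -0.09 had an interval from -0.24 to 0.06, which includes 0. The FPKM of Tlr1 was 11.2 times that of its partner Tlr2 in PBS and 13.1 times in SJMHE1. It was 7.32 times that of Tlr6 in PBS and 7.28 times in SJMHE1.

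Tlr4 is the receptor for bacterial lipopolysaccharide, which it binds together with the protein of Ly96 after transfer by that of Cd14. Tlr4 (ENSMUSG00000039005, chromosome 4, plus strand, 66827584 to 66930284) was near the lower end of the levels, with an FPKM of 1.79 and 547 counts in PBS and of 1.85 and 599 counts in SJMHE1. The log2 ratio was 0.05 (interval -0.12 to 0.22). Its partners were further apart between the libraries than Tlr4 itself. Ly96 had an FPKM of 3.97 with 224 counts in PBS and 2.10 with 126 counts in SJMHE1, a log2 ratio of -0.92 (interval -1.25 to -0.60). Cd14 had 1.30 with 125 counts and 2.68 with 270 counts, a log2 ratio of 1.04 (interval 0.73 to 1.36), which reaches below 2-fold, and with a pseudocount of 0.1 or 1 Cd14 was no longer past 2-fold. Both genes are also expressed by macrophages and monocytes. Of the 12 markers of these cells that passed the filter, 2 were past 2-fold higher in SJMHE1 and 1 was lower, and the part of such cells in the values of Ly96 and Cd14 was not tested.

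Cd180 and Ly86 encode the chains of a surface complex of B cells, in which the Ly86 protein is needed for Cd180 to reach the surface. Both genes are on the plus strand of chromosome 13, Cd180 (ENSMUSG00000021624) from 102693558 to 102739629 and Ly86 (ENSMUSG00000021423) from 37345208 to 37419036. Cd180 had an FPKM of 45.3 with 11211 counts in PBS and 48.3 with 12661 counts in SJMHE1. The log2 ratio was 0.09 (interval 0.06 to 0.13). Ly86 had 23.0 with 4588 counts in PBS and 23.6 with 4983 counts in SJMHE1, a log2 ratio of 0.04 (interval -0.02 to 0.10). The FPKM of Cd180 was 1.97 times that of Ly86 in PBS and 2.05 times in SJMHE1, and 25.3 times and 26.1 times that of Tlr4. These multiples depend on the gene lengths that the authors used. In GENCODE M21, the transcripts with the longest coding sequence have 2650 bases for Cd180 and 1134 for Ly86. Cd180 overlaps Mast4 on the opposite strand, which had 3364 counts in PBS and 5653 in SJMHE1. The sources used here do not say whether counting used strand, and 3.03% of the windows of Cd180 also occur in transcripts of Mast4.

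In endosomes, Tlr3 binds viral RNA duplexes, Tlr7 binds RNA rich in uridine and guanosine, and Tlr9 binds DNA with unmethylated CpG. Tlr9 (ENSMUSG00000045322, chromosome 9, plus strand, 106222598 to 106226883) had an FPKM of 13.9 with 2661 counts in PBS and of 15.5 with 3125 counts in SJMHE1. This is a log2 ratio of 0.15 (interval 0.07 to 0.22). Tlr7 (ENSMUSG00000044583, chromosome X, minus strand, 167304929 to 167330558) had 7.32 with 1641 counts in PBS and 8.93 with 2122 counts in SJMHE1. It was 22.0% higher in SJMHE1, a log2 ratio of 0.29 (interval 0.19 to 0.38), and had the highest ratio of the 10 genes. Among all genes compared, 84.6% had a ratio no higher than that of Tlr7. Tlr3 (ENSMUSG00000031639, chromosome 8, minus strand, 45395665 to 45411080) had 1.36 with 390 counts in PBS and 1.20 with 366 counts in SJMHE1. Its log2 ratio of -0.18 had an interval from -0.39 to 0.03, the widest of the 10 genes. Tlr3 overlaps the antisense gene Gm45542, and 5.30% of the windows of Tlr3 also occur there. The FPKM of Tlr9 was 1.90 times that of Tlr7 in PBS and 1.73 times in SJMHE1.

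Myd88 is the adaptor that every receptor named above needs for its main signal, except Tlr3, which uses Ticam1, and Cd180. The gene of Myd88 (ENSMUSG00000032508) spans chromosome 9 from 119335934 to 119340041, minus strand. It had an FPKM of 15.2 with 2144 counts in PBS and of 12.4 with 1863 counts in SJMHE1. The level was lower by 17.9% in SJMHE1, with a log2 ratio of -0.29 and an interval between -0.38 and -0.20. It had the lowest ratio of the 10 genes, and 18.7% of all genes compared had a ratio as low or lower. Myd88 overlaps Acaa1a on the opposite strand, which had 1331 counts in PBS and 1423 in SJMHE1, and 7.42% of the windows of Myd88 also occur there. It also overlaps Slc22a14 on the same strand, with which it shares no window. The FPKM of Tlr9 was 0.92 times that of Myd88 in PBS and 1.24 times in SJMHE1. The 250 bases before the start sites of these genes, which changed places in the order of the deposited FPKM, are given from RefSeq on GRCm38.p6, with motifs in capitals.
Tlr9, chr9:106222348-106222597, plus strand: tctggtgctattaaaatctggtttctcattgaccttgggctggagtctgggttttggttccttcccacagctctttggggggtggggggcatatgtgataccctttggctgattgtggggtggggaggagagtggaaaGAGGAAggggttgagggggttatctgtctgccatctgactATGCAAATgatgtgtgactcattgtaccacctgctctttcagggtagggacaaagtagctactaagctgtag
Myd88, chr9:119340019-119340268, minus strand: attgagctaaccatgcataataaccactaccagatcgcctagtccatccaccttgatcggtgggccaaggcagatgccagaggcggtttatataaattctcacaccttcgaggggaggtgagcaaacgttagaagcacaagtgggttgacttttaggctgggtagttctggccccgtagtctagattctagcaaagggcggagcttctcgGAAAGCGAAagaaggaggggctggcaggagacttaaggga
In Tlr9, the capitals mark the ETS core GAGGAA and the octamer ATGCAAAT, and in Myd88 the interferon response motif GAAANNGAA. Searched on both strands, GAGGAA was found in 23.3% of 32851 promoters of this length, ATGCAAAT in 1.60% and GAAANNGAA in 7.13%. RefSeq entries matched 8 of the 10 genes, with 11 start sites. Of these, 2 held GAGGAA, 1 held ATGCAAAT and 2 held GAAANNGAA. The NF-kB motif GGNNNTTCC was found in 3 of the 11 and in 15.7% of all, and the cyclic AMP motif TGACGTCA in 0 of the 11 and in 1.55% of all. In Tlr2, the NF-kB motif occurred at overlapping positions on both strands. A match of letters is a description and not evidence of binding.

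**Figure D3:**
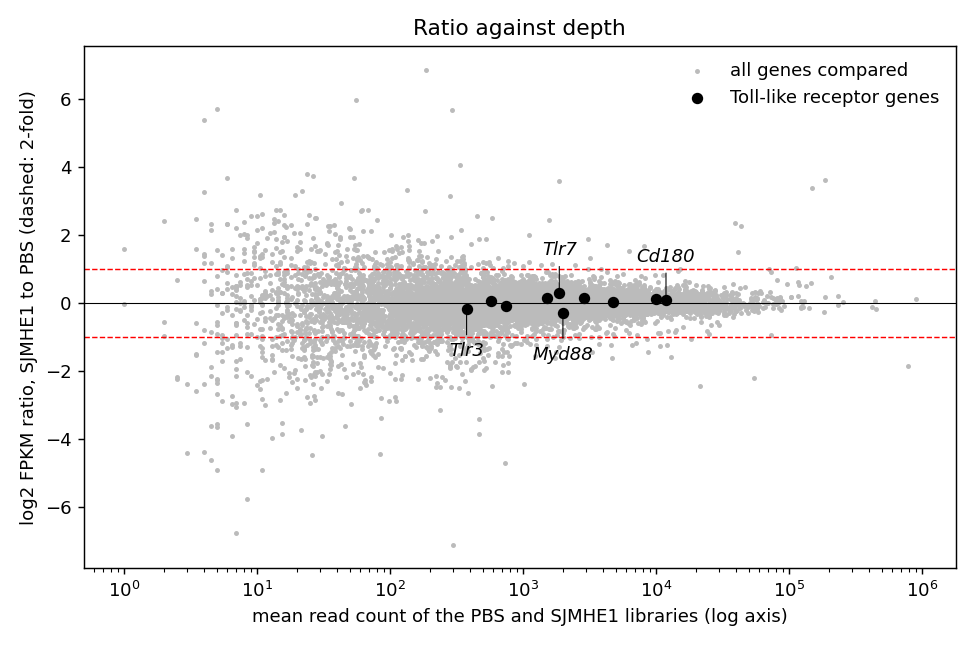
Log2 FPKM ratio, SJMHE1 to PBS, against the mean count of the 2 libraries (log axis), with all 12433 genes compared in grey and the 10 genes in black. The black points lie between -0.29 and 0.29, and genes with few counts spread most.

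The depth behind these genes was high. The lowest mean count was 378, for Tlr3. Of the 9415 genes with a mean count at least that high, 130 or 1.38% were past 2-fold. The median size of the log2 ratio, without its sign, was 0.15 among these genes and 0.13 among the 10 genes.

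The remaining receptor genes of the family were low. Tlr13, which binds bacterial ribosomal RNA, was the only 1 of 5 to pass the filter, with an FPKM of 1.65 and 392 counts in PBS and of 0.96 and 240 counts in SJMHE1, a log2 ratio of -0.78 (interval -1.02 to -0.55). Tlr11, which binds profilin of protozoa, had 92 and 47 counts, Tlr12 had 75 and 83, Tlr8 had 57 and 55 and Tlr5, the flagellin receptor, had 7 and 10. Their FPKM values did not exceed 0.50.

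Genes that fold, move and cleave the receptors had 0 of 10 genes past 2-fold, with a median log2 ratio of 0.09. This count is near the background of all genes compared, 2.43% higher and 3.57% lower. Unc93b1, which carries the endosomal receptors out of the endoplasmic reticulum, had an FPKM of 138 in PBS and 162 in SJMHE1, 18.8 times and 18.1 times the level of Tlr7. Its log2 ratio was 0.23 (interval 0.21 to 0.26). Hsp90b1, the chaperone on which most of the receptors depend, had 133 and 198 and the highest log2 ratio of the list, 0.57. The protease gene Ctss had the highest level, with 211 and 231, and the protease gene Ctsl had the lowest ratio, -0.84, with an FPKM of 1.65 and 0.92.

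Downstream of the receptors, each list is given by its genes past 2-fold. Among all genes compared, 2.43% were past 2-fold higher and 3.57% lower in SJMHE1. A count of 0 in 4 or in 11 genes is near this background. None of the 4 further adaptors that passed the filter was past 2-fold. Their log2 ratios ran from -0.08 for Ticam1 to a value close to 0 for Pik3ap1, which had an FPKM of 54.0 and 53.8. In the kinase complex of IRAK, TRAF and TAK1 proteins, 0 of 11 genes were past 2-fold, with log2 ratios from -0.52 for Tab1 to 0.26 for Tbk1. Among IKK, NF-kB and IRF genes, it was also 0 of 11. The NF-kB subunit gene Rel had the highest level, an FPKM of 105 in PBS and 78.1 in SJMHE1, and the lowest log2 ratio, -0.42, while Nfkb2 had the highest, 0.39, with 46.0 and 60.2. Of 8 negative regulators, Socs1 was past 2-fold, with 191 counts in PBS and 70 in SJMHE1 and a log2 ratio of -1.57, and Tnfaip3, the most abundant, had 84.6 and 57.1 and a log2 ratio of -0.57. Irak3 had the highest ratio of that list, 0.30.

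Of 12 genes that Toll-like receptor signals can induce and that passed the filter, 10 were lower in SJMHE1 and 2 were past 2-fold lower, with a median log2 ratio of -0.36. Among all genes compared, 3.57% were past 2-fold lower, 47.7% had a ratio above 0, and the median was -0.01. Other receptors induce the same genes. The chemokine gene Ccl3, past 2-fold lower, had an FPKM of 9.25 with 390 counts in PBS and 3.86 with 172 counts in SJMHE1, a log2 ratio of -1.26. The inhibitor gene Nfkbia was the most abundant, with 127 and 110, and Il12a had the highest log2 ratio, 0.55, with 11.9 and 17.3. Il6 and Ifnb1 were not analysed here. Over all 60 genes of these lists that passed the filter, without the 10 genes themselves, 1 was past 2-fold higher and 3 were lower. This share of 6.67% is near that of all genes compared, 746 of 12433. It is above that of protein-coding genes alone, 260 of 9900 or 2.63%, and rests on 4 genes. With an FPKM of 1 or more asked for in both libraries, it was 5.26% against 2.22% of all genes. The median log2 ratio of the 60 genes was -0.04. In the same libraries, 7 of 8 T cell markers and 3 of 4 NK cell markers that passed the filter were past 2-fold lower, and the part of such cells in the values of Ccl3 and Socs1 was not tested.

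**Figure D4:**
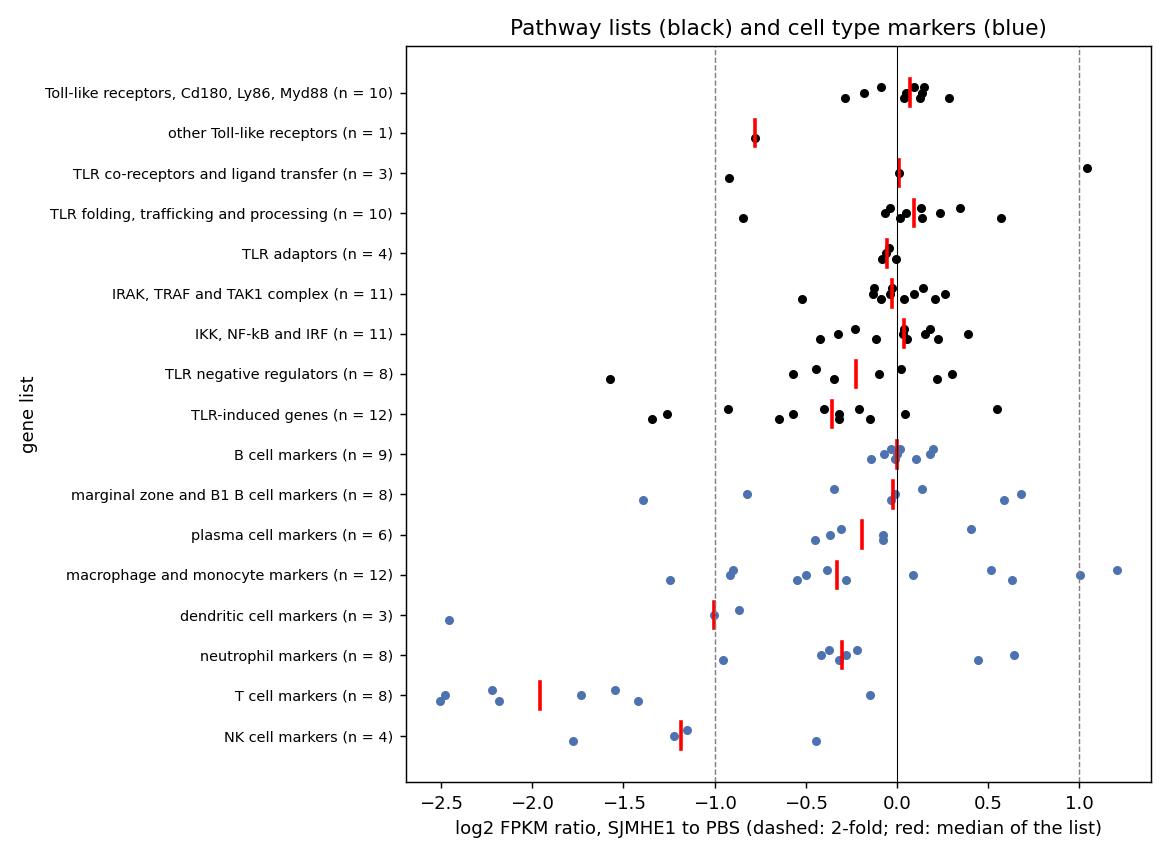
Log2 FPKM ratio, SJMHE1 to PBS, of each gene that passed the filter in the lists of pathway genes (black) and cell type markers (blue), with the median of each list in red. The 10 genes and the B cell markers lie close to 0, between -0.29 and 0.29, and the T cell, NK cell and dendritic cell markers lie mostly below -1.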

How the data were processed

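Per the labels, the series holds 3 libraries, and the submitters' processing notes name bcl2fastq 2.0, HISAT2, StringTie, DESeq2, limma and the build mm10, with no role or order. Material of 3 mice was pooled per group after sorting of B cells. Values of 1 gene of the lists are not reported here. For each gene, the authors deposited a raw count of reads. They also deposited FPKM, with 2 decimals, in which the authors divided by gene length and library size. The counting tool and its use of strand are not given in the sources used here. The names of 2 value columns fit no sample, and these columns were left out, so the planned comparisons with the Control group were not made.

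The log2 ratio of FPKM, SJMHE1 to PBS, was taken without a pseudocount for genes whose FPKM was 1 or more in either library and 0 in neither, with 2-fold as the threshold. Intervals (95%) of ratios come from exact Clopper-Pearson and those of levels from exact Poisson limits of the counts. They cover counting error only. A test between groups could not be fitted with 1 library per group. The 10 genes and the 17 lists were chosen with earlier results of these data known. The genes named from a list are those past 2-fold, the most abundant, those with the highest and lowest ratio, and any gene of a list of 5 or fewer. The alternatives were pseudocounts of 0.1 and 1, 3 other filters, a 1.5-fold threshold, protein-coding genes alone and 4 other scalings, among them the factors of edgeR 4.0.16 (TMM) and DESeq2 1.42.0. Coordinates are those of the table. GENCODE M21 has the same ones for 7 of the 10 genes, and other ends for Tlr1, Tlr6 and Myd88. The calculations were tested on simulated counts that held counting error only, with no spread between mice. R 4.3.3 and Python 3.11.15 were used, the latter with scipy 1.17.1, pandas 2.3.3, numpy 2.4.6 and matplotlib 3.10.9.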

Additional observations from a re-analysis of the deposited data

How the results depend on the processing

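No paired analysis was possible because there is a single library in either group, and for that reason no replicate could be left out. The number of the 10 genes past 2-fold was 0 under each alternative run, also at 1.5-fold. Under the alternatives, the share of all genes past 2-fold ran from 1.97% to 16.6%, and at 1.5-fold it was not taken. Of the 10 genes, 7 were higher in SJMHE1 under each of the 6 pseudocounts and scalings. With these, Tlr7 had log2 ratios from 0.26 to 0.33 and Myd88 from -0.29 to -0.24. The ratios of Tlr1 and Cd180 left their counting intervals with 1 alternative each, reaching 0.17 and 0.14. When 5 FPKM or more were asked for in either library, 7 of the 10 genes were left. The number of all genes past 2-fold, 746, was 246 with a pseudocount of 1, 3385 with no filter, 252 when both libraries needed 1 FPKM, 145 when either needed 5 FPKM and 260 among protein-coding genes, and the filters and the choice of protein-coding genes change how many genes are compared by construction. Of the 60 pathway genes that passed the filter, 4 were past 2-fold. With a pseudocount of 0.1 it was 3 of 60, or 5% against 5.32% of all genes. With a pseudocount of 1 it was 2 of 60, or 3.33% against 1.98%. When no filter was set it was 8 of 68, or 11.8% against 16.6%. When either library needed 5 FPKM it was 2 of 48, or 4.17% against 1.97%. The share of pathway genes was thus above or below that of all genes depending on the setting, and it rests on few genes. The alternatives for the Control comparisons were not run. With either pseudocount no pathway gene was past 2-fold higher, so Cd14 lost that place. Depth limits genes such as Tlr5, with 7 and 10 counts, and the lack of replicates limits every value.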

Other observations

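A wider list, chosen after the data were seen, is the Toll-like receptor pathway of KEGG as the deposited annotation marks it. It holds 84 genes, of which 73 passed the filter. Without the receptor genes and Myd88 described above, 65 genes were left, and the median of their log2 ratios was -0.06. Of these, 1 was past 2-fold higher, Cd14, and 3 were lower. Their share is near that of all genes compared, 746 of 12433, but above that of protein-coding genes alone, 260 of 9900. With so few genes past 2-fold, the genes named next are given as values and not as a mark of the pathway. Il1b, which encodes an inflammatory cytokine, had an FPKM of 20.1 with 2103 counts in PBS and 8.31 with 923 counts in SJMHE1, a log2 ratio of -1.27 (interval -1.39 to -1.16). The chemokine gene Ccl5 had 6.02 with 319 counts and 2.91 with 163 counts, a log2 ratio of -1.05 (interval -1.33 to -0.77), which reaches inside 2-fold. Ccl3 is the third gene that was lower. Myeloid cells, T cells and NK cells express these genes. Of the markers that passed the filter, 8 of 8 for T cells, 4 of 4 for NK cells and 6 of 8 for neutrophils were lower in SJMHE1. For macrophages and monocytes it was 7 of 12, with 2 past 2-fold higher and 1 past 2-fold lower. Among all genes compared, 47.7% had a ratio above 0, so 7 of 12 lower is near the background. The part of such cells in the values was not tested.

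Among 8 markers of marginal zone and B1 B cells, subsets known for strong responses to Toll-like receptor ligands, the values went both ways. Cr2 had an FPKM of 136 in PBS and 218 in SJMHE1, a log2 ratio of 0.68, and Cd5 had 1.94 and 0.74, a log2 ratio of -1.39. T cells also express Cd5. Past 2-fold lower were 1 of these 8 markers and 2 of the 3 dendritic cell markers that passed the filter. None of 6 plasma cell markers and none of 8 neutrophil markers was past 2-fold, with medians of the log2 ratio of -0.19 and -0.30. Among all genes compared, 2.43% were past 2-fold higher and 3.57% lower, and a count of 0 in so few markers is near this.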
